A study of Mus musculus with 36 samples.

Results

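The 177 transcripts described here had lower signal in induced pluripotent stem (iPS) cells than in embryonic stem (ES) cells of the mouse. They were chosen from 25030 array features by their deposited log10 levels: both iPS arrays had to lie under both ES arrays, the ES mean had to exceed the iPS mean by at least 0.2, and the ES mean had to be at least 2.3. They made up 0.707% of those features. The ES and iPS arrays alone chose them, so the difference between these cells is given as a description and was not tested. The doxycycline and tamoxifen responses in fibroblasts come from other arrays.

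The series held 36 arrays in 18 groups of 2. The v6.5 ES cells and the iPS cells came from a hybrid background of C57Bl/6 and 129, the iPS cells being labelled clone #2 and carrying the transgene KOS-ZERT2. Secondary mouse embryonic fibroblasts (MEFs; second generation, same background, labelled clone #1) carried the same transgene and were collected on days 1, 3 and 6 with neither drug, with doxycycline at 1.5 µg/ml, with tamoxifen at 200 nM, or with both. Every secondary MEF group, untreated ones included, was thus of 1 clone and grew in ES medium with LIF on gelatin, as did the ES and iPS cells. Primary MEFs, labelled as F1 hybrids from V6.5 and grown in MEF medium, either carried the transgene Zscan4ERT2 or were wild, and each kind was labelled with or without tamoxifen. The dose was 200 nM for the Zscan4ERT2 MEFs, and none is given for the wild ones. The ES and iPS cells are recorded with neither drug, and the primary MEFs without doxycycline. No label states that the 2 arrays of a group stem from separate cultures. The p-values therefore cover only the spread between those arrays, which may be technical. The labels name no transgene in the ES cells and no promoter for any transgene.

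Reprogramming turns fibroblasts into iPS cells by forced expression of a few transcription factors. KOS is the usual abbreviation for Klf4, Pou5f1 (Oct4) and Sox2, and doxycycline is the drug commonly used to switch on such a cassette. A protein fused to ERT2, a mutated ligand-binding domain of the oestrogen receptor, is held out of the nucleus until tamoxifen is added. Zscan4 is a zinc-finger protein known from 2-cell embryos and from brief bursts of expression in ES cells. iPS and ES cells share the network of genes that maintains pluripotency, and iPS clones are known to differ from ES cells in a limited and partly clone-specific set of transcripts.

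The files name each feature only by a probe identifier, with no gene, chromosome position or annotation, so the transcripts are named here by probe. What each encodes, and whether any belongs to the pluripotency or fibroblast programme, is not stated here. For the same reason the labelled cell types, the transgenes and Zscan4 itself were not checked against marker genes. Each probe is 60 bases long. The first 30 bases of 6 probes are shown, because the patterns below turn on them: the probe with the largest ES over iPS difference in the deposited levels, one whose signal in doxycycline rose from background, the largest doxycycline rise and fall, and the largest rise and fall with tamoxifen beside doxycycline.
Z00074822-1: cgtctttggctgaagaagaccggaattgtt
Z00041789-1: cttagcttcgccactgtttaccggttacta
Z00074466-1: ctggaagagcccctgtattgtccctatagg
Z00025177-1: ctttgaaggagacccagcccagcctctaca
Z00029389-1: tgacataggctggcttagaagtcactatgt
Z00016353-1: tgtaagcagcgaagattttaattcaccaat

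The probes of the 177 transcripts were unlike each other in sequence. No 2 of them shared a word of 20 bases on either strand, and 3 shared such a word with a feature outside the set. Their median GC content was 43.3%, with quartiles of 38.3% and 46.7%. Over all features of the deposited table the median was also 43.3%, with quartiles of 36.7% and 48.3%.

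Most of the ES over iPS differences were small. The median was 0.271 on the log10 level scale, which is 1.87-fold, and they ran from 1.59-fold to 6.85-fold. Of the transcripts, 118 lay between 0.2 and 0.3 on that scale, 59 were at least 2-fold lower in iPS cells and 16 at least 3-fold. Their ES levels ran from 2.303 to 4.87 with a median of 2.84. Of 13011 features at or over the ES minimum, 4676 had both iPS arrays under both ES arrays, which the minimum difference reduced to the 177. The levels follow the ratio of sample to reference with a constant added per feature, so a difference between groups is a ratio of ratios and levels of different transcripts are not compared. In the log2 ratios computed here from the scanner intensities, 174 of the 177 had both iPS arrays under both ES arrays and 2 had a missing value, while 29.1% of all features did. These are the arrays that chose the members, so nothing is read from that count.

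Z00074822-1 had the largest difference in the deposited levels, 6.85-fold. Its log10 level was 2.31 and 2.70 on the ES arrays and 1.70 and 1.63 on the iPS arrays. The groups did not overlap, but the ES arrays of this probe lay far apart. Z00006600-1 (6.83-fold) gave 3.07 and 2.98 in ES cells and 2.18 and 2.20 in iPS cells, with tight pairs. Z00041789-1 gave 2.67 and 2.66 in ES cells and 1.80 and 1.97 in iPS cells, where only 1 of the 2 arrays was well above background. Z00024810-1 (4.36-fold) gave 3.52 and 3.48 against 2.87 and 2.84. In log2 ratios from the scanner intensities, ES minus iPS was 1.43 for Z00074822-1, 2.11 for Z00006600-1, 0.96 for Z00041789-1 and 2.01 for Z00024810-1, so the order of these 4 depends on the values used. None of them was well above background on either array of untreated wild MEFs.

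Of these 4, Z00024810-1 rose with doxycycline and then sank back. Without drugs its level lay between 1.46 and 1.61 on every array, and with doxycycline it was 2.64 and 2.67 on day 1, then 2.39 on both arrays, then 2.17 and 2.13. The log2 ratio rose by 1.65, 1.31 and 0.78 on the 3 days (SE 0.072 each; limma adjusted p 1.06e-15, 4.84e-14 and 1.13e-09), the last with an adjusted p of 0.572 when backgrounds were used as deposited. Tamoxifen beside doxycycline raised it further by 0.38 on day 1 and 0.35 on day 3 (limma adjusted p 1.10e-02 and 2.83e-03). Z00006600-1 was called in no comparison and lay between 1.55 and 2.02 on the secondary MEF arrays. Z00074822-1 was called with tamoxifen beside doxycycline on day 6, at 0.56 (SE 0.177; limma adjusted p 4.55e-02). That call was lost without any 1 of the 4 arrays, with adjusted p-values from 0.0668 to 0.312, and also with the replicate block (0.0520), without the filter on dim probes (0.0525), without the 2 arrays of high noise (0.0609) and with backgrounds as deposited (0.238). Feature Extraction's ratios and the deposited levels both gave a change of 1.61, with adjusted p-values of 0.0734 and 0.0522.

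At the edge of the rule the differences were close to each other. Just inside it, Z00074753-1 differed by 0.2003 and Z00034732-1 by 0.201 on the log10 level scale. Just outside it, Z00037692-1 differed by 0.1999 and Z00074340-1 by 0.198. Z00037692-1 rose by 2.06 (SE 0.068, log2 ratio) with doxycycline on day 6 and Z00074340-1 fell by 1.58 (SE 0.064), while Z00074753-1, a member, fell by 2.03 (SE 0.092), with limma adjusted p-values of 1.22e-18, 1.08e-16 and 9.85e-16. Large responses to doxycycline thus occurred on both sides of the limit.

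Fibroblasts did not hold these transcripts at one common level. In untreated wild MEFs, 82 of the 177 had a group mean above that of ES cells, 78 had a mean below that of iPS cells and 17 lay between. Untreated Zscan4ERT2 MEFs gave 80, 72 and 25, and untreated secondary MEFs gave 75, 89 and 13 at day 1 and 77, 79 and 21 at day 6. By the same cut in wild MEFs, 5606 of the 13011 features at or over the ES minimum lay above, 7198 below and 207 between. Outside the set the iPS mean need not lie under the ES mean. A wide split was thus not particular to the 177. Their median log10 level was 2.82 in wild MEFs and 2.78 in untreated secondary MEFs of day 6, close to the 2.84 of ES cells and above the 2.54 of iPS cells. These positions use the ES and iPS means and are therefore given without a test.

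**Figure D1:**
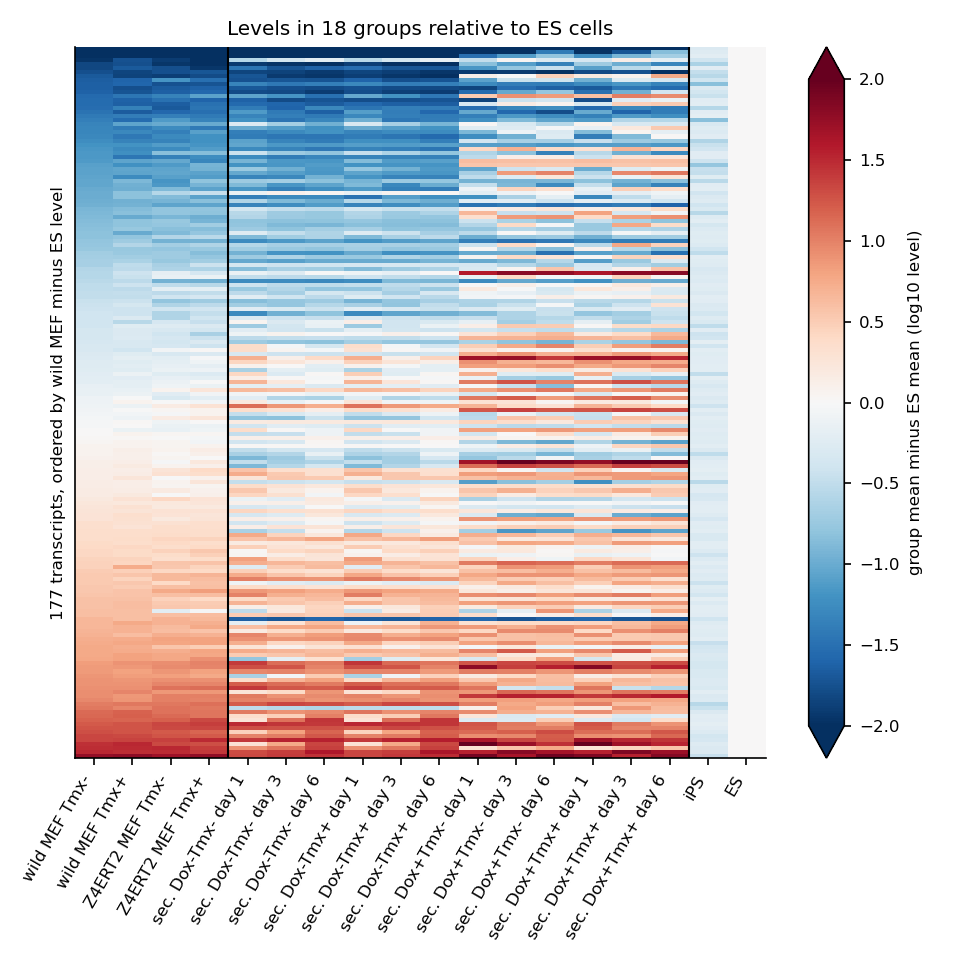
Group mean of each of the 177 transcripts (rows) minus its ES mean, in log10 levels, for the 18 groups (columns); rows are ordered by the value in untreated wild MEFs and colours end at 2 in either direction. The primary MEFs run from far below to far above ES cells, and many rows change colour in the secondary MEFs given doxycycline, while the iPS column is pale and below 0 throughout, as the rule requires.

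Doxycycline raised most of the transcripts and lowered fewer. Against untreated secondary MEFs of the same day, day 1 brought 92 rises and 37 falls, while 23.5% of all features tested rose and 22.8% fell. By day 3 there were 108 rises and 41 falls, against 31% and 27% of all features. On day 6, 100 rose and 51 fell, against 28.9% and 25.5%. All 177 had passed the filter on dim features, as all were well above background on both ES arrays, which were part of the rule. The shares that rose were 52.0%, 61.0% and 56.5% of the 177 on the 3 days. Features with an ES level over the same minimum rose at 30.5%, 38.6% and 36.5%. The median change of the 177 was 0.23, 0.55 and 0.49 on the log2 ratio scale, beside -0.02, 0.00 and 0.00 for all features. These calls are limma's, at a Benjamini-Hochberg adjusted p under 0.05 over all features.

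On days 3 and 6 alike 95 transcripts rose (53.7%) and 37 fell (20.9%), against 23.2% and 19.1% of all features. In opposite directions on these days moved 9 (5.08%, against 1.69%), and 11 (6.21%) were called on no day, against 24.7%. On day 6, 64 had risen (36.2%) and 23 had fallen (13.0%) at least 2-fold, against 6.83% and 5.75% of all features. In the deposited levels, all arrays with doxycycline lay above all arrays of secondary MEFs without it for 59 transcripts (33.3%), against 8.04% of all features, and below them for 19 (10.7%), against 7.64%. Arrays with and without doxycycline of a day lay on different slides, so within a day slide and doxycycline cannot be told apart. A fit to the secondary MEF arrays alone took slide as a random block. It called 124 of the 177 for doxycycline averaged over days, and 37.7% of all features. The main fit called 159, but it used all 36 arrays and 1 mean per group, so the block is not the only difference. The correlation within a slide was 0.680. Each of these slides held a single day, all with or all without doxycycline. That correlation therefore cannot tell slide from a doxycycline response that changed between days.

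With doxycycline alone, 102 group means lay above the ES mean on day 6 (57.6%), against 77 without it (43.5%). Over all features the shares were 42.1% and 42.8%. Above the ES mean with doxycycline but not without it were 36 transcripts (20.3%, against 8.35% of all features), and the reverse held for 11 (6.21%, against 9.13%). Below the iPS mean lay 60 with doxycycline and 79 without. The median log10 level of the 177 was 3.05 with doxycycline on day 6. At that time 18 transcripts (10.2%) lay at least 10-fold above their ES level and 21 (11.9%) at least 10-fold below it, against 4.36% and 2.5% of all features. The ES level was part of the rule, and many of all features lie under its minimum, so these positions are a description. For them, shares over the features at or over the ES minimum were not computed.

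**Figure D2:**
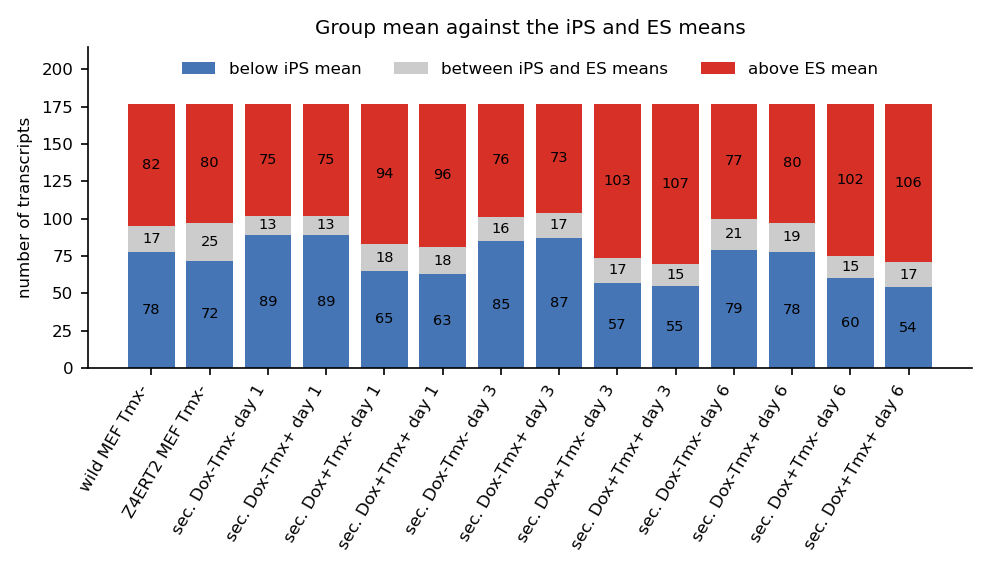
Number of the 177 transcripts whose group mean lay above the ES mean (red), between the iPS and ES means (grey) or below the iPS mean (blue), for untreated primary MEFs and for secondary MEFs by day and drug. The red share is larger in every group given doxycycline, for example 102 on day 6 with doxycycline alone against 77 with neither drug.

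The largest rise was that of Z00074466-1. Its log10 level in untreated cells was 2.42 on both arrays of day 1, then 2.23 and 2.24, and at the last time point 2.28 and 2.32. With doxycycline it was 4.60 on both arrays of day 1, then 4.96 and 4.94, then 4.79 and 4.81. The groups were far apart, and the doxycycline arrays exceeded the ES arrays (2.91 and 2.92) as well. The log2 ratio rose by 6.74, 8.31 and 7.76 on the 3 days (SE 0.099 each), which is 107-, 316- and 216-fold, with limma adjusted p-values of 6.92e-25, 3.88e-27 and 1.35e-26. In wild MEFs it was 2.97 and 3.08, so secondary MEFs without drug held less of it than ES cells or wild MEFs.

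Z00070171-1 had the next largest rise averaged over the 3 days. Its level without drugs was 2.93 and 2.90 on day 1, then 2.76 and 2.80, then 2.46 and 2.47. With doxycycline it was 4.50 and 4.48, then 4.90 and 4.86, then 4.81 and 4.82. ES cells gave 3.96 and 3.97 and iPS cells 3.53 and 3.51, between the treated and the untreated fibroblasts. The log2 ratio rose by 5.199, 6.95 and 7.52 (SE 0.078 each), or 36.7-, 124- and 183-fold, with limma adjusted p-values of 9.36e-25, 1.43e-27 and 3.19e-28.

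Z00041789-1 went from a signal not well above background to above the ES level. Without doxycycline it was not well above background on any array of secondary MEFs. With doxycycline alone the log10 level was 3.22 and 3.21 on day 1, then 3.20 and 3.22, then 3.22 and 3.19. These levels were flat over time and above the 2.67 and 2.66 of ES cells. The signals behind them were not flat. After background subtraction the sample channel read 2990, 7945 and 8136 on the 3 days, and the reference channel 458, 1194 and 1054. Taken from the sample channel, the level was at least 55.1-, 149- and 127-fold higher with doxycycline on the 3 days. Here the untreated side is, per array, the higher of the probe's own signal and the lowest signal well above background. These bounds were not tested. The rise in log2 ratio had limma adjusted p-values of 5.48e-23, 3.09e-24 and 9.39e-24.

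The ratio has the reference channel as its base, which held the same RNA on every array. For Z00041789-1 the background-subtracted reference signal was 44.9 in untreated cells of day 6 and 1054 with doxycycline, beside 8.51 and 8136 in the sample channel. For Z00074466-1 the reference read 1697 and 4177. The reference signal was over 1.5-fold higher with doxycycline for 7 of the 177 transcripts on day 1, 16 on day 3 and 13 on day 6, all of which rose, against 1.08%, 2.72% and 1.65% of all features. It was over 1.5-fold lower for 1 on day 6, Z00075904-1, which fell. What moved the reference signal, and its part in these ratios and levels, was not tested.

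Averaged over the days, Z00025177-1 had the largest fall. Without drugs its log10 level was 6.10 and 6.14 on day 1, then 5.93 and 5.97, then 5.91 and 5.96. With doxycycline it was 5.77 and 5.78, then 4.37 and 4.32, then 4.22 and 4.24. On days 3 and 6 the treated arrays lay under both iPS arrays (4.41 and 4.39) as well as under the ES arrays (4.70 and 4.72), and wild MEFs stood at 5.64 and 5.62. The log2 ratio fell, with changes of -1.07, -4.91 and -5.29 (SE 0.064 each), the last being 39.0-fold, with limma adjusted p-values of 4.54e-13, 1.54e-26 and 5.26e-27.

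Z00075904-1 also fell, with changes of -1.22, -3.88 and -3.15 on the log2 ratio scale (SE 0.090; limma adjusted p 2.66e-11, 1.11e-21 and 7.12e-20). Its level without drugs went from 2.92 and 2.89 on day 1 to 4.08 and 4.07 on day 6, and with doxycycline from 2.40 and 2.35 to 3.17 and 3.10. Both series climbed, so the fall is relative to untreated cells of the same day. ES cells stood at 2.65 and 2.64, which treated cells had passed by day 6. Its reference signal on day 6 was 1047 without drugs and 494 with doxycycline, beside 9676 and 594 in the sample channel.

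The transcripts were also split by their level in fibroblasts. Of the 78 transcripts below the iPS mean in wild MEFs, 49 rose and 8 fell with doxycycline on day 6. Of the 82 above the ES mean, 40 rose and 38 fell. Of the 17 between, 11 rose and 5 fell. The difference between these classes was not tested, because they were cut with the ES and iPS arrays that chose the members. Shares over all features of each class were not computed, so the split is not read as particular to these transcripts.

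**Figure D3:**
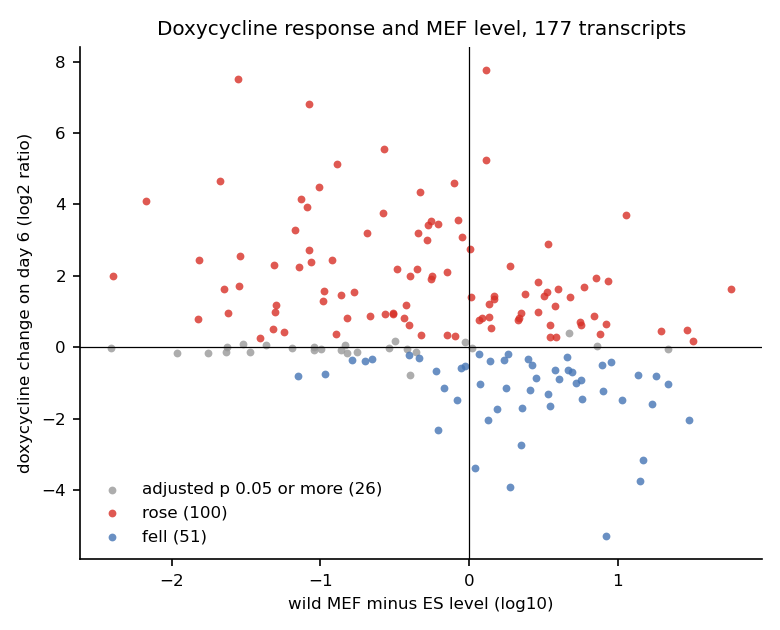
Change with doxycycline on day 6 (log2 ratio, vertical) against the untreated wild MEF level minus the ES level (log10, horizontal), 1 point per transcript; red points rose (100), blue points fell (51) and grey points had a limma adjusted p of 0.05 or more. Rises occur across the whole range, whereas most of the falls lie on the right, among transcripts higher in MEFs than in ES cells (38 of the 51). Whether all features show the same pattern was not computed.

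Tamoxifen given beside doxycycline changed few transcripts on day 1 and more later. Against doxycycline alone, 7 rose and 1 fell on day 1, when 0.275% of all features rose and 0.103% fell. By day 3 there were 37 rises and 12 falls, against 5.2% and 2.14%. On day 6, 50 rose and 12 fell, against 6.82% and 2.43%, and features over the ES minimum rose at 9.31% and fell at 3.02%. The median change of the 177 on day 6 was 0.11 (log2 ratio), beside 0.01 for all features, so most of these changes were small. At least 2-fold, 6 rose (3.39%) and 1 fell (0.565%), against 0.23% and 0.0121% of all features. The arrays compared share a slide on each day, and the reference signal moved over 1.5-fold for none of the 177. On every slide of secondary MEFs, with or without doxycycline, arrays without tamoxifen lay at the first positions and those with it at the last. Position and tamoxifen therefore cannot be told apart.

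The counts moved with the handling of the background. Without replacing the local backgrounds marked as outliers, 1, 12 and 26 rose on the 3 days and 0, 4 and 5 fell. Feature Extraction's own ratios gave 4, 17 and 33 rises. Leaving out single arrays gave 21 rises on day 3 without replicate 2 of doxycycline alone. It gave 4 falls on day 3 without replicate 1 of doxycycline alone and 6 without either replicate of both drugs, and on day 6 it gave 7 falls without replicate 1 of doxycycline alone or replicate 2 of both drugs. On day 1, 1 to 3 rises remained without any 1 of the 4 arrays, and the fall remained only without replicate 1 of doxycycline alone.

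With tamoxifen beside doxycycline, 24 transcripts rose on both day 3 and day 6 (13.6%) and 7 fell on both (3.95%), against 3.16% and 0.87% of all features. The comparison with doxycycline alone against no drug shares arrays with this one, so no overlap between them is given.

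Z00029389-1 rose most with tamoxifen beside doxycycline. On day 1 its log10 level was 2.59 and 2.62 with doxycycline and 2.69 and 2.67 with both drugs. On day 3 it was 2.60 and 2.58 against 3.03 and 3.07, and on day 6 it was 2.82 and 2.79 against 3.40 and 3.35. From day 3 the groups were well apart, and with both drugs the level passed that of ES cells (2.85 and 2.84). Doxycycline alone on day 6 lay just under the ES arrays in these levels and just over them in log2 ratios (0.91 and 0.82 against 0.76 and 0.72). The log2 ratio rose by 1.39 on day 3 and 1.87 on day 6 (SE 0.081), which is 2.61- and 3.65-fold, with limma adjusted p-values of 9.98e-11 and 1.98e-13. Without doxycycline it stayed at 1.59 to 1.90 on every array, with or without tamoxifen, and primary MEFs were not well above background.

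Z00034851-1 showed the same order and stayed below ES cells. On day 3 its level was 2.08 and 2.03 with doxycycline and 2.34 and 2.32 with both drugs, and on day 6 it was 2.66 and 2.61 against 3.18 and 3.19. ES cells gave 4.04 and 4.03, so even with both drugs the fibroblasts held less of it than the iPS cells (3.78 on both arrays). The log2 ratio rose by 0.55 on day 3 and 1.69 on day 6 (SE 0.095; limma adjusted p 4.16e-04 and 1.70e-11), and with backgrounds as deposited the call on day 3 was lost (adjusted p 0.806).

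Z00016353-1 fell with tamoxifen although doxycycline raised it. With doxycycline alone its level was 2.99 and 2.96 on day 3 and 3.42 and 3.39 on day 6. With both drugs it was 2.77 on both arrays and then 3.09 and 3.07. Both treated groups lay above untreated cells (2.85 and 2.93 on day 6) and above ES cells (2.58 and 2.60). The log2 ratio fell, by -0.56 on day 3 and -1.01 on day 6 (SE 0.108; limma adjusted p 1.19e-03 and 3.54e-07).

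Z00004168-1 fell with either step. On day 6 it stood at 4.00 and 4.01 without drugs, 3.43 and 3.37 with doxycycline, and 3.21 and 3.17 with both, against 2.62 and 2.66 in ES cells. Tamoxifen changed the log2 ratio by -0.39 on day 3 and -0.64 on day 6 (SE 0.095; limma adjusted p 9.91e-03 and 4.24e-05). It brought the level nearer to, but not down to, that of ES cells. The call on day 3 was lost without either replicate of doxycycline alone or replicate 2 of both drugs, with adjusted p-values of 0.0682, 0.0719 and 0.193, and with backgrounds as deposited both calls were lost (adjusted p 0.841 and 0.469).

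**Figure D4:**
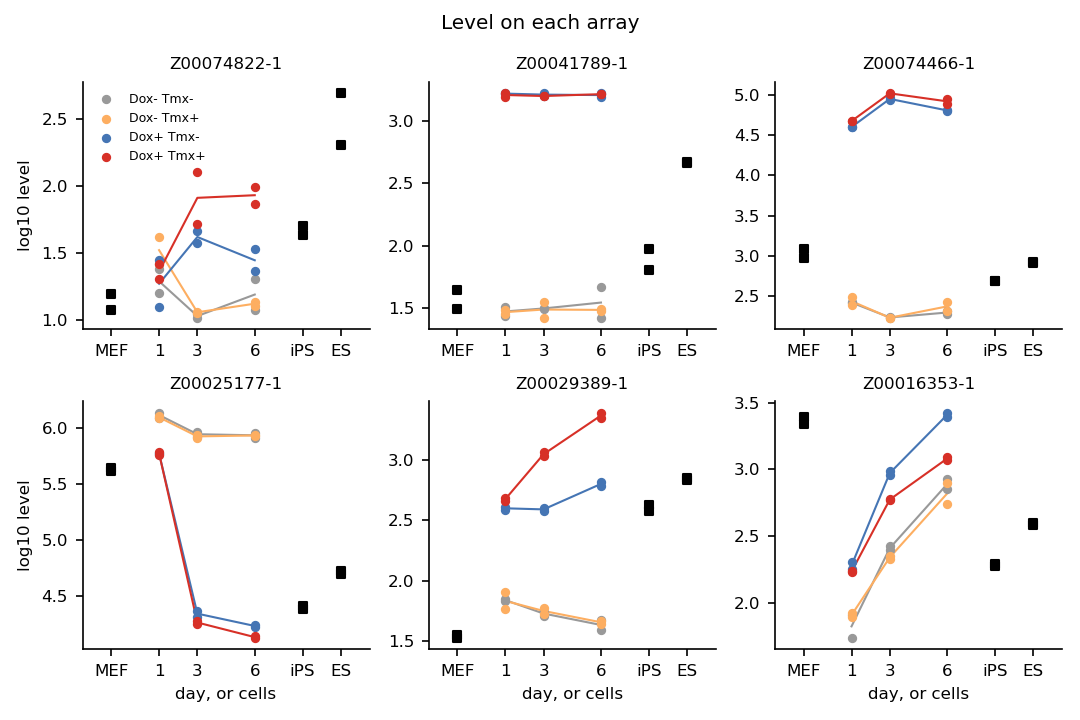
Log10 level on each array (points) of the 6 transcripts whose probe sequences are shown, with lines through the means of 2 arrays for secondary MEFs by day and drug, and black squares for untreated wild MEFs, iPS and ES cells. Z00074466-1 and Z00041789-1 jump by day 1 with doxycycline, Z00025177-1 drops between days 1 and 3, and the lines for doxycycline with and without tamoxifen part for Z00029389-1 and, in the other direction, for Z00016353-1.

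Tamoxifen alone changed none of the 177 by limma at an adjusted p under 0.05 on day 1, 3 or 6 or averaged over days, and 0% of all features. At an unadjusted p under 0.05, 14, 2 and 21 of the 177 passed on the 3 days and 23 on average. With the deposited levels 4 were called on day 6 and 1 on average. The count on day 6 rested on 1 array: without replicate 1 of the tamoxifen group, 34 of the 177 and 21.6% of all features were called on day 6, and 22 on average. Replicate 2 of this group on day 1 has a protocol that names no tamoxifen.

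The tamoxifen effect itself was compared between cells with and without doxycycline. Averaged over days, it was higher beside doxycycline for 40 transcripts and lower for 17, against 4.4% and 2.14% of all features. Z00029389-1 had the largest positive difference, 1.14 (SE 0.066, log2 ratio; limma adjusted p 7.95e-11). Z00034921-1 followed with 0.86 (SE 0.112; limma adjusted p 1.37e-05), its level on day 6 being 2.69 and 2.65 with doxycycline and 3.04 and 3.11 with both drugs. Z00016353-1 and Z00004168-1 had the most negative ones, -0.42 (SE 0.088) and -0.40 (SE 0.078), with limma adjusted p-values of 3.01e-03 and 1.59e-03. In the fit to secondary MEF arrays with slide as a random block, only 4 of the 177 were called, and 0.499% of all features. That fit differs from the main one in more than the block. Z00034921-1, Z00016353-1 and Z00004168-1 then had adjusted p-values of 0.144, 0.186 and 0.0831. Feature Extraction's ratios called 29 and normexp on the backgrounds as deposited 21.

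**Figure D5:**
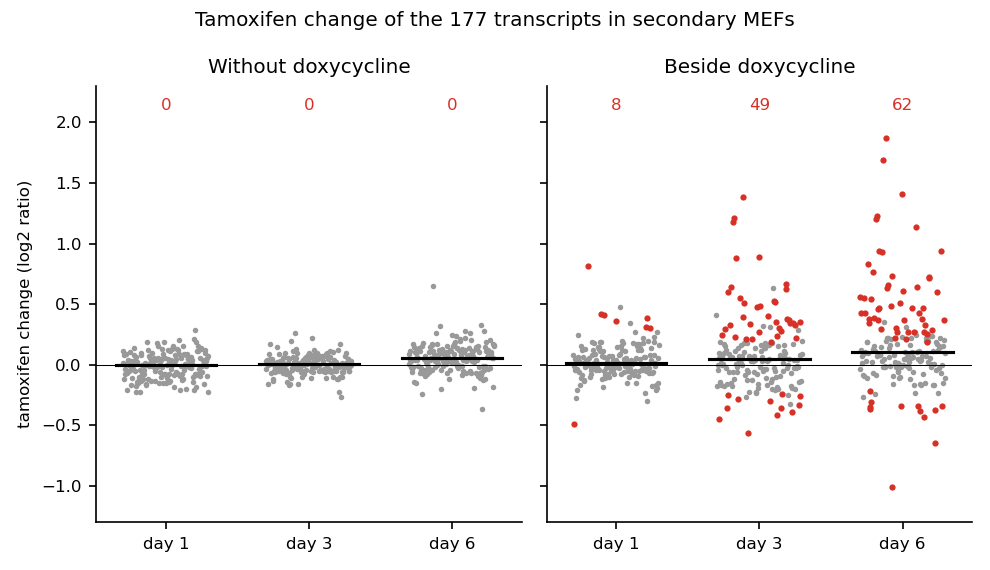
Change with tamoxifen (log2 ratio) of the 177 transcripts in secondary MEFs by day, without doxycycline (left) and beside it (right); red points and the red counts are those with a limma adjusted p under 0.05, black bars are medians, and sideways scatter within a day has no meaning. The counts are 0 on each day without doxycycline and 8, 49 and 62 beside it.

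The doxycycline response changed between days 1 and 6. It was higher on day 6 for 75 transcripts and lower for 51, against 21.7% and 19.8% of all features. Z00006684-1 grew most, by 5.61 (SE 0.092, log2 ratio; limma adjusted p 8.78e-23). With doxycycline its level was 3.83 and 3.799 on day 1, then 5.32 and 5.33, then 5.45 and 5.48, against 4.47 on both ES arrays. Without drugs it lay between 3.29 and 3.45 on every array, so it passed the ES level between days 1 and 3 of doxycycline.

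Z00034626-1 gained 4.00 (SE 0.076; limma adjusted p 9.35e-22). It went from 4.50 and 4.53 to 5.00 and 5.01 with doxycycline, while untreated cells went down from 4.40 and 4.41 to 3.68 on both arrays. Both movements add to the difference. Z00025746-1 moved the other way, by -5.63 (SE 0.134; limma adjusted p 4.86e-20): treated cells went from 4.91 and 4.89 to 4.32 and 4.31, and untreated cells rose from 3.17 and 3.09 to 4.17 and 4.19. Z00025177-1, described above, lost a further 4.21 (SE 0.090; limma adjusted p 9.06e-21).

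Many of these transcripts also differed between days 1 and 6 without drugs. In that comparison 54 rose (30.5%) and 71 fell (40.1%), against 27.6% of all features in either direction. Features with an ES level over the same minimum rose at 34.0% and fell at 36.4%, which is near the shares of the 177. The 2 days were on different slides, so that slide and day cannot be told apart. Z00075904-1 rose by 4.01 and Z00019665-1 by 3.87 (SE 0.090 and 0.067, log2 ratio; limma adjusted p 1.42e-20 and 1.44e-22), the latter from 3.09 and 3.06 to 4.24 and 4.23, past the ES arrays (3.75 and 3.71). For Z00075904-1 the reference signal also moved, from 496 to 1047, while the sample signal rose 45.3-fold, and the part of the reference in the change was not tested. Z00034626-1 fell by 2.43 and Z00051653-1 fell by 2.32 (SE 0.054 and 0.075; limma adjusted p 1.30e-20 and 5.85e-18). Z00051653-1 went from 4.29 and 4.31 to 3.63 and 3.60, near the level of ES cells (3.62 and 3.61), but with doxycycline it stood at 4.62 and 4.61 on day 6.

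In primary MEFs tamoxifen was compared in cells labelled with the Zscan4ERT2 transgene alone. There 23 of the 177 rose and 9 fell, against 1.62% and 1.43% of all features. Z00070171-1 rose by 0.70 (SE 0.078, log2 ratio; limma adjusted p 5.88e-06), from 2.62 on both arrays to 2.88 and 2.91. Z00074466-1 rose by 0.67 (SE 0.099; limma adjusted p 2.29e-04), from 2.88 and 2.90 to 3.09 and 3.17. These 2 were also the leading rises with doxycycline in secondary MEFs, at far larger size. Z00004586-1 fell by 1.14 (SE 0.288; limma adjusted p 2.81e-02). Its log2 ratios lay far apart on the 2 arrays without tamoxifen, at -1.05 and 0.82, and were -1.24 and -1.27 with it. Its deposited levels were 2.50 on both arrays without tamoxifen and 2.36 and 2.28 with it. Without replicate 2 of the untreated Zscan4ERT2 MEFs its change was -0.21 (adjusted p 0.487). Z00054944-1 fell by 0.62 (SE 0.120; limma adjusted p 3.63e-03).

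No 2 primary MEF groups shared a slide, and slide and treatment cannot be told apart there. With backgrounds as deposited the adjusted p was 0.407 for Z00070171-1 and 0.0705 for Z00074466-1. The count of 32 called fell to 19, 14 and 14 without replicate 1 or 2 of the untreated or replicate 2 of the treated Zscan4ERT2 MEFs, and to 9 when primary MEF arrays alone were fitted. In wild MEFs labelled with tamoxifen, whose protocol names none, limma called 0 of the 177 and 0.305% of all features, with 22 of the 177 at an unadjusted p under 0.05. The deposited levels called 14, Feature Extraction's ratios 6, normexp on the backgrounds as deposited 2, and 2 were called without replicate 2 of the wild MEFs labelled without it. The tamoxifen effects in the 2 kinds of primary MEF were not tested against each other.

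Untreated Zscan4ERT2 MEFs differed from untreated wild MEFs for 46 of the 177, of which 27 were higher and 19 lower, against 4.92% and 5.12% of all features. The widest gap was that of Z00057709-1, at 2.45 and 2.47 against 3.27 and 3.28 in wild MEFs, a difference of -2.304 (SE 0.086, log2 ratio; limma adjusted p 1.46e-15). Z00055038-1 differed by -0.92 (SE 0.077; limma adjusted p 5.70e-09). Z00004586-1 was higher by 1.09 (SE 0.288; limma adjusted p 1.42e-02) and Z00019741-1 by 0.78 (SE 0.095; limma adjusted p 2.86e-06). Without replicate 2 of the Zscan4ERT2 MEFs the former difference was only 0.16. With the deposited levels the difference of Z00004586-1 was 0.41 and its call was lost (limma adjusted p 0.0761). The count was 29 without replicate 1 of the Zscan4ERT2 MEFs and 26 with primary MEF arrays alone. Across all drugs, all 8 primary MEF arrays lay above all 24 secondary MEF arrays in log10 level for 19 of the 177 (10.7%), against 5.03% of all features, and below them for 13 (7.34%), against 4.14%.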

How the data were processed

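RNA of each sample was labelled with Cy3 and a common reference with Cy5, per the labels' protocols, with no dye swap. The reference was a pool of 11 cell lines mixed 2 to 1 with RNA of 129 ES cells. Spots were quantified with Agilent Feature Extraction, per the submitters' processing notes. The deposited intensity values used were spot means and local background medians, not normalized. The deposited log10 ratio of Feature Extraction, red over green, was used with its sign turned as an alternative. The deposited log10 levels of the series matrix chose the members. Their differences between arrays followed Feature Extraction's ratio (residual SD 0.0126, against 0.0636 for the sample channel, over 13134 bright features), while the constant added per feature is not given in the sources used here. Array medians were 2.37 to 2.46.

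From the intensities, log2 ratios of sample over reference were computed from the deposited files with limma 3.58.1 in R 4.3.3: normexp with an offset of 50, after local backgrounds marked as outliers were replaced by the array's median, because 2 arrays otherwise gave noise estimates above 100, then loess. Spots of a probe were averaged. Features were kept where 1 or more groups had them well above background in Cy3 on both arrays (33099 of 42006). The share of probes well above background was 54.9% to 77.1% per array; precision is limited by how few arrays there are. A model with 1 mean per group was fitted to all 36 arrays with lmFit and eBayes (18 residual and 5.05 prior degrees of freedom), two-sided, with Benjamini-Hochberg adjustment per comparison and calls under 0.05. The scripts were tested on simulated data. A change is the fitted difference in log2 ratio, and a level is the deposited log10 value.

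The rule names the 4 largest and 2 smallest ES over iPS differences, the 2 features just under the limit and, per comparison, the 2 largest called rises and falls with groups that did not overlap. Gene lists could not be applied without gene names. The members and lists were chosen with earlier results of these data known.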

Additional observations from a re-analysis of the deposited data

Results flagged for a closer look

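The tamoxifen effect in secondary MEFs differed between cells with and without doxycycline by a test of that difference, averaged over days (limma, adjusted p under 0.05). It was higher beside doxycycline for 40 of the 177 transcripts and lower for 17, against 4.4% and 2.14% of all features. In the fit to secondary MEF arrays with slide as a random block, 4 of the 177 were called. There Z00034921-1, Z00016353-1 and Z00004168-1 lost their calls (adjusted p 0.144, 0.186 and 0.0831). That fit differs from the main one in more than the block. Named for it were Z00029389-1 with a difference of 1.14 and Z00034921-1 with 0.86, and in the other direction Z00016353-1 with -0.42 and Z00004168-1 with -0.40 on the log2 ratio scale.

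The doxycycline effect differed between days 1 and 6, again by a test of the difference, and was higher on day 6 for 75 transcripts and lower for 51, against 21.7% and 19.8% of all features. Z00006684-1 differed by 5.61 and Z00034626-1 by 4.00, and Z00025746-1 by -5.63 and Z00025177-1 by -4.21 on the log2 ratio scale.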

How the results depend on the processing

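Counts are given here as the per cent of the transcripts tested. Among counts under alternatives, 316 stayed within 1.5 times the main one and 48 did not. Every count for doxycycline and for time in culture did so under every alternative run, and among values of named transcripts under alternatives 593 kept direction and call, 35 lost the call and 0 reversed. For tamoxifen beside doxycycline, rises on day 1 (3.95%) were 0.565% with normexp on backgrounds as deposited, 2.26% with Feature Extraction's ratios and 6.78% with a minimum difference of 0.3, and 0.565% to 1.69% without 1 array. Falls on day 1 (0.565%) were 0% with the first and second of these and with the deposited levels, 1.69% with the minimum of 0.3, and 0% to 0.565% without 1 array. On day 3 rises (20.9%) were 6.78% with backgrounds as deposited, 9.60% with Feature Extraction's ratios and 11.9% to 17.5% without 1 array. Falls on day 3 (6.78%) were 2.26% with backgrounds as deposited, 11.9% with the minimum of 0.3 and 2.26% to 5.08% without 1 array. On day 6 rises (28.2%) were 14.7% and 18.6% with backgrounds as deposited and Feature Extraction's ratios, and falls (6.78%) were 2.82% with the former and 3.95% to 5.65% without 1 array. Averaged over days (44.1%) the called share was 20.3% with backgrounds as deposited and 22.0% with slide as a random block. Tamoxifen alone (0%) gave 2.26% on day 6 and 0.565% on average with the deposited levels, and 0% to 19.2% and 0% to 12.4% without 1 array. The interaction (32.2%) gave 11.9% with backgrounds as deposited, 16.4% with Feature Extraction's ratios and 2.26% with the same slide model. Tamoxifen in Zscan4ERT2 MEFs (18.1%) gave 5.65% with backgrounds as deposited, 5.08% with primary MEF arrays alone and 7.91% to 17.5% without 1 array. Labelled tamoxifen in wild MEFs (0%) gave 1.13% with backgrounds as deposited, 3.39% with Feature Extraction's ratios, 7.91% with the deposited levels and 0% to 1.13% without 1 array. Zscan4ERT2 against wild MEFs (26.0%) gave 14.1% with backgrounds as deposited, 14.7% with primary MEF arrays alone and 16.4% to 19.2% without 1 array. The cause of these differences was not tested. Arrays of different groups share replicate numbers. Over 13 comparisons the correlation of their deviations ran from -0.342 to 0.529, with 6 over 0.1 and 5 under -0.1. It was 0.529 for tamoxifen beside doxycycline and 0.442 for tamoxifen alone, both on day 6. With 2 arrays a group this does not settle whether arrays of 1 number belong together. With the replicate block 51 transcripts rose with tamoxifen beside doxycycline on day 6, 57 were called for the interaction and 29 for tamoxifen in Zscan4ERT2 MEFs, and no count moved by over 1.5 times. Signal over background limits the low end: in wild MEFs 36 of the 177 were well above background on neither untreated array.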

Other observations

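Among the 177 transcripts, 2 had the widest gap in log10 level between primary and secondary MEFs whose arrays did not overlap, 1 in each direction, and they were chosen after their values were seen. Z00006571-1 ran from 4.76 to 4.88 in primary MEFs with a median of 4.84, and from 2.43 to 2.63 in secondary MEFs with a median of 2.53, a ratio of 201-fold between the mean log10 levels. It was well above background on all of these arrays. iPS cells gave 3.78 and 3.799 and ES cells 4.17 and 4.204, between both kinds of fibroblast, and no secondary MEF array with either drug approached them. Z00033292-1 was well above background on none of the 8 primary MEF arrays, and ran from 2.77 to 3.496 in secondary MEFs with a median of 3.04, beside 2.96 and 2.94 in iPS cells and 3.36 and 3.34 in ES cells. The clone, the transgene, the culture medium and the slides differ between primary and secondary MEFs and cannot be told apart. Their genetic backgrounds are labelled in different words.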
